A study of Mus musculus with 4 samples.

Results

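Genomic imprinting marks some mammalian genes so that in body tissues only the copy from 1 parent is read. A set of 33 imprinted mouse genes was followed in cultured germline stem cells in which Nanos2 had been induced: 16 are maternally expressed, 16 are paternally expressed, and the Gnas locus makes transcripts of both kinds. The genes were chosen by name, from textbook lists of imprinted loci, and matched to the gene names and accessions of the arrays' probes. All 33 were on the array, with 71 probes, and 28 of them, with 57 probes, passed a filter on dim probes (at least 2 of the 4 arrays had to show the probe well above background); they stand beside 17537 features measured in all.

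The series measured total RNA from male mouse germline stem cells, testis-derived spermatogonial stem cells grown in culture, on 4 arrays. Every culture carried both Rosa-CreERT2 (spelled Roa-CreERT2 in the series design), a recombinase that works once 4-hydroxytamoxifen is given, and CAG-CAT-3FlagNanos2-pA, a construct from which tagged Nanos2 is made once the recombinase has acted. The control group (2 arrays) took DMSO and the induced group (2 arrays) took 4-hydroxytamoxifen, for 48 hours each. Mitomycin-treated embryonic fibroblasts served as feeders and were removed before RNA was taken. Both groups held the construct and none took the compound without it, so the effects of Nanos2, of the compound and of the recombinase cannot be told apart.

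Imprints are patches of DNA methylation laid down in the egg or the sperm lineage and kept after fertilisation by Dnmt1 with Uhrf1, and by the zinc finger protein Zfp57 with Trim28. Primordial germ cells erase them, and the male germ line then sets the paternal pattern on both copies before birth, so the words maternally and paternally expressed name the rule of body tissues. Imprinted genes lie in clusters that share a control region and often hold a long noncoding RNA; many of their proteins act on fetal and placental growth, with paternally expressed ones often promoting it and maternally expressed ones often restraining it. The arrays read total transcript and cannot tell the parental copies apart.

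Next, 3 promoters of members are shown because Nnat fell the most of all measured members while Plagl1 and Meg3 rose, and because each holds the hexamer TGCCGC, the core of the sequence that Zfp57 recognises when it is methylated. Windows run from 250 bases before to 50 after the RefSeq transcript start of assembly GRCm38.p6, 5′ to 3′ on the gene's strand; the capitals mark the hexamer, here as its reverse complement GCGGCA. The Nnat window is chr2:157559828-157560127 (plus strand), the Plagl1 window chr10:13090582-13090881 (plus strand) and the Meg3 window chr12:109540746-109541045 (plus strand).
Nnat: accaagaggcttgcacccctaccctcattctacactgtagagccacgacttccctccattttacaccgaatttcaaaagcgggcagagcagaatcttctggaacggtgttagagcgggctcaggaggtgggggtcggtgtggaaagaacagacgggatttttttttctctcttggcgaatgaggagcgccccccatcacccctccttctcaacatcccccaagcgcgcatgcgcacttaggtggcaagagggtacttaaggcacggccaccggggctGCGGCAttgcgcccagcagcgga
Plagl1: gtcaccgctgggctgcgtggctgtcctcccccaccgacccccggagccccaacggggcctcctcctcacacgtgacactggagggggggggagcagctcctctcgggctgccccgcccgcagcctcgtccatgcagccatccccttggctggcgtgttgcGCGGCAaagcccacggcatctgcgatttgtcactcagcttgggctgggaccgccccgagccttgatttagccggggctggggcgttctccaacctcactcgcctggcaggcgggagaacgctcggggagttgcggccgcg
Meg3: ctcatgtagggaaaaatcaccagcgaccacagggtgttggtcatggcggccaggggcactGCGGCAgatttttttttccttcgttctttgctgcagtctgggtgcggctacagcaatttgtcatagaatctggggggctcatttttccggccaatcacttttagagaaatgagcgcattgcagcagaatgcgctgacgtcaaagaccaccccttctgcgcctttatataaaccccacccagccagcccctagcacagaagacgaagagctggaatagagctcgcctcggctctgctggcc
They hold 17, 26 and 13 CpG sites. Of the 33 members, 28 had an entry, with 40 windows, and the hexamer stood on either strand in 11 of them (27.5%), against 3813 of 32851 windows over all promoters (11.6%). By class it stood in 5 of 18 windows of maternally expressed genes (27.8%) and 6 of 18 of paternally expressed ones (33.3%). The median window of the members held 17 CpG sites, and that of all promoters 7. Median GC content was 60.2% against 52.7%. A match is only a description of the letters in the window; windows of 1 gene can overlap, and binding and methylation were not measured. H19, Impact, Nap1l4, Peg10 and Sgce were not matched.

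The probes that read the noncoding RNAs H19 and Meg3 are shown next, because these RNAs went opposite ways. Both are 60 bases long, with the array files' positions on build mm9: chr7:149761769-149761828 (minus strand) for H19 and chr12:110809678-110809737 (plus strand) for Meg3.
H19: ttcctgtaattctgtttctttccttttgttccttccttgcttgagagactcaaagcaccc
Meg3: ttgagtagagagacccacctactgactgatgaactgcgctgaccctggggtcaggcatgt

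Each array held 43379 spots of 41174 different probes, of which 62.1% to 65.9% were well above background. No spot was saturated (0 on each array). Across the 17537 filtered features, arrays of 1 group correlated at 0.996 and 0.997 and arrays of different groups at 0.948 to 0.954. All 4 lay on 1 slide and were read in 1 scan. Nanos2, the check of the labels, read 352.8 and 351.7 in DMSO and 903.8 and 1070 in 4-hydroxytamoxifen, a rise of 1.55 ± 0.10 on the log2 scale (limma adjusted p = 0.000868). Array values throughout are processed signals in arbitrary units before scaling, DMSO replicates 1 and 2 first and 4-hydroxytamoxifen replicates 1 and 2 second. Differences are on the log2 scale, 4-hydroxytamoxifen minus DMSO after scaling each array on its 75th percentile, each with its limma standard error (n = 2 arrays a group). The labels do not say whether the arrays of a group came from separate cultures, and p-values measure the spread among these samples alone, which may be technical. An exact permutation test of 2 against 2 arrays cannot go below p = 0.333 (two-sided), so each call rests on the spread limma pools over features.

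Imprinted genes moved in both directions. At a limma adjusted p under 0.05, 12 of the 28 measured members were higher in the 4-hydroxytamoxifen arrays and 9 lower, and 7 did not pass. Nap1l5, Impact, Grb10, Slc22a18, Sgce and Meg3 rose at least 2-fold, and Nnat was the 1 member that fell at least 2-fold. The whole transcriptome moved as well: 69.5% of all features passed, 40.3% higher and 29.3% lower, so the members' shares (75%, 42.9% and 32.1%) lay near the background. Rises of at least 2-fold were met by 21.4% of members and 16.2% of features, falls of that size by 3.57% and 8.2%. The groups' arrays did not overlap for 26 members (92.9%), against 86.5% of features. The median difference was 0.22 over the members and 0.11 over all features.

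The split between rises and falls depended on the scaling. Scaling on each array's median moved the median of all features by -0.18 and turned their calls from 7059 higher and 5136 lower to 5714 and 6663; members were then 11 higher and 12 lower. Scaling on spike-in probes moved it by -0.15, with members 11 higher and 5 lower. Both shifts went the same way, so rises smaller than them could lose their sign, and falls could not. With spike-in scaling limma gave Calcr and Nnat the same standard error, 0.22, against 1.22 and 0.29 in the main fit. Calls in that setting thus follow the size of a difference and not the gene's own spread. Nap1l4 lost its call there although its difference went from -0.30 to -0.44. The ranges of p over all alternatives given below include that setting.

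**Figure D1:**
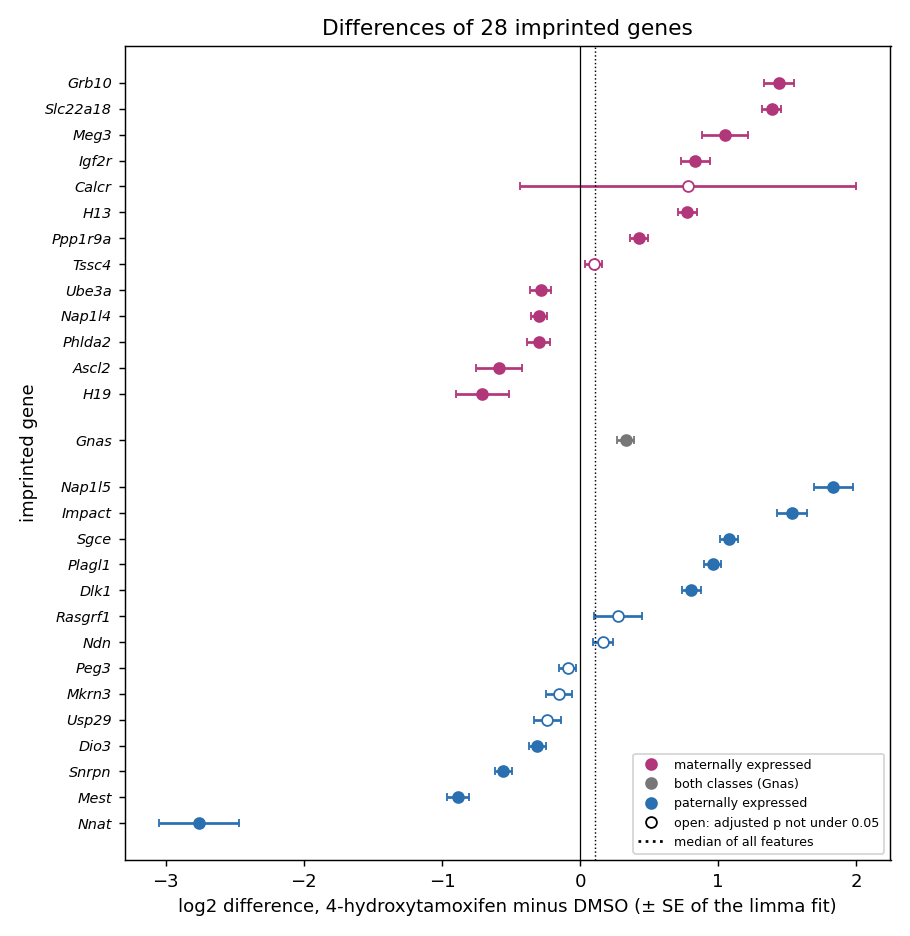
Log2 difference (4-hydroxytamoxifen minus DMSO, x axis) of the 28 measured imprinted genes (y axis), with limma standard errors (2 arrays a group); colours give the parental class and open points did not pass. Both classes run across 0, and Nnat lies lowest at -2.76; Nap1l5 is drawn at its fitted 1.83, although its DMSO probe was not well above background and only a rise of at least 2.58-fold is measured. The dotted line is the median of all features, 0.11.

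**Figure D2:**
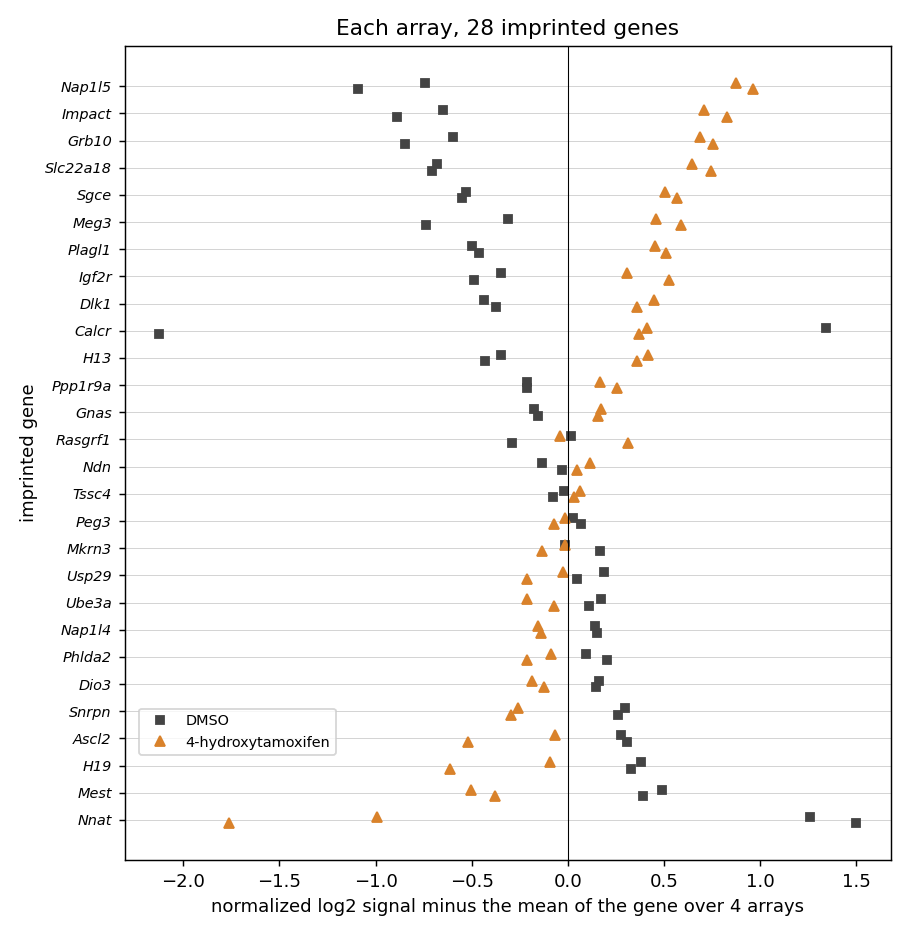
Normalized log2 signal of each array minus the gene's mean over the 4 arrays (x axis), for the 28 measured members (y axis); squares are DMSO and triangles 4-hydroxytamoxifen. The groups separate for 26 members, while Calcr spreads widely between the DMSO arrays.

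The same arrays also differed in markers of cell types. For the labelled cell type, 13 of 14 germ cell markers were measured, each well above background on all arrays, among them the helicase Ddx4 and the translational regulator Dazl. Of these 13, 9 were lower and 1, Nanos2 itself, was higher, with a median of -0.70. The other 3, Ddx4 (-0.17 ± 0.08), Sall4 (-0.16 ± 0.07) and Mael (0.12 ± 0.09), did not pass. The falls were uneven, from -0.26 in Tex101 to -1.41 in Dazl, -2.45 in Gfra1 and -4.77 in Nanos3. The summed scaled signal of the list was 197280 and 195694 in DMSO and 135885 and 141912 in 4-hydroxytamoxifen. Of 30 embryonic fibroblast markers 29 were measured, 28 of them higher and 0 lower, with a median of 0.92; their summed signal was 234634 and 265809 in DMSO and 445141 and 424103 in 4-hydroxytamoxifen, and every measured one was well above background in both groups. Of 10 macrophage and blood markers 7 were higher and 0 lower, from sums of 11892 and 13232 to 25938 and 26641. Of 8 Sertoli and Leydig markers 5 were higher and 2 lower, with sums of 3942 and 4378 against 8914 and 8464. Of 3 endothelial markers 1 was higher and 0 lower, with sums of 111.3 and 124.7 against 154.5 and 146.1. At an unadjusted limma p under 0.05 all 29 measured fibroblast markers were higher, and the macrophage and endothelial lists also held 0 lower markers. Of the dim endothelial markers, Pecam1 gave -0.47 ± 0.21. Fewer cells of a type and less RNA per cell cannot be told apart in such samples, and the part of these cell types in the members' differences was not tested.

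Among the maternally expressed members, the long noncoding RNAs went opposite ways. H19, which shares its control region with Igf2, read 7475 and 7841 in DMSO and 3726 and 5350 in 4-hydroxytamoxifen. Both 4-hydroxytamoxifen arrays lay below the DMSO arrays, replicate 1 further, and H19 fell by 0.71 ± 0.19 (limma adjusted p = 0.0315). Its second probe gave -0.64 ± 0.13. The call was lost without DMSO replicate 1 (-0.74, limma adjusted p = 0.052) and without DMSO replicate 2 (-0.68, 0.0618), within 0.000292 to 0.0843 over all alternatives. Meg3, the noncoding RNA of the Dlk1-Dio3 cluster, read 2125 and 2885 in DMSO and 5098 and 4662 in 4-hydroxytamoxifen. The groups lay well apart although the DMSO arrays differed, a rise of 1.05 ± 0.17 (limma adjusted p = 0.00656). All 5 Meg3 probes passed as higher, between 0.79 and 1.10.

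Grb10 and Igf2r, which act on insulin-like growth factor signalling, rose. Grb10, an adaptor that dampens the receptors of both hormones, read 3456 and 4142 in DMSO and 10032 and 9575 in 4-hydroxytamoxifen. That is 2.72-fold higher, by 1.44 ± 0.11 (limma adjusted p = 0.00104), with no overlap. Its other probes, dimmer, gave 0.63 and 1.28, both passing. Igf2r, the receptor that takes Igf2 to the lysosome, read 8027 and 8918 in DMSO and 15495 and 13353 in 4-hydroxytamoxifen, a rise of 0.84 ± 0.11 (limma adjusted p = 0.00355). Both genes thus rose, while Igf2 itself, no member of the set, fell by 0.62 ± 0.06 (limma adjusted p = 0.00181).

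Of the 5 members in the Kcnq1 cluster on chromosome 7, 1 rose, 3 fell and 1 did not pass, where 40.3% of all features were higher and 29.3% lower. Slc22a18, an organic cation transporter family member, read 362.8 and 373.4 in DMSO and 949.2 and 889.2 in 4-hydroxytamoxifen, 2.62-fold higher by 1.39 ± 0.07 (limma adjusted p = 0.000576). Its second probe, further upstream, passed with a smaller rise of 0.43. Ascl2, a transcription factor needed in the placenta, read 54.2 and 53.6 in DMSO and 29.3 and 40.0 in 4-hydroxytamoxifen, and fell by 0.59 ± 0.17 (limma adjusted p = 0.0368). Phlda2, which restrains placental growth, read 1368 and 1284 against 981.5 and 1072, and fell by 0.30 ± 0.08 (limma adjusted p = 0.0325). Its second probe also gave -0.30 but did not pass (limma adjusted p = 0.121 over probes). Nap1l4, a nucleosome assembly protein, read 51811 and 51862 against 40397 and 40097, and fell by 0.30 ± 0.06 (limma adjusted p = 0.0131). Of these falls that of Nap1l4 differed between probes, since its other 2 gave -0.87 and -0.80. Tssc4 read 10067 and 10593 against 10402 and 10654, a difference of 0.10 ± 0.06 that did not pass (limma adjusted p = 0.236), and it turned negative with median (-0.08) and spike-in scaling (-0.05).

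The calls of these 3 falls were lost when single arrays were left out. Ascl2 did not pass without either DMSO replicate (limma adjusted p = 0.0741 and 0.0629, within 0.0021 to 0.132 over all alternatives). Phlda2 did not pass without DMSO replicate 1 (0.119) or either 4-hydroxytamoxifen replicate (0.13 and 0.0579), within 0.00951 to 0.13. Nap1l4 did not pass with any 1 of the 4 arrays left out (0.0523 to 0.0633), within 0.00353 to 0.074, although its difference stayed between -0.30 and -0.29.

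Of the maternally expressed genes of protein turnover, H13 rose and Ube3a fell slightly. H13, the signal peptide peptidase of the endoplasmic reticulum, read 1409 and 1510 in DMSO and 2337 and 2430 in 4-hydroxytamoxifen, a rise of 0.78 ± 0.07 (limma adjusted p = 0.00143). Its probes did not move together: one upstream read 377.8 and 399.1 against 281.6 and 297.2 and fell by 0.35 ± 0.07, and the one furthest 3′ differed by 0.04. The mean of the 3 probes was 0.15 and did not pass (limma adjusted p = 0.0901, the highest of all alternatives). Ube3a, a ubiquitin ligase, read 5040 and 5312 in DMSO and 4237 and 3861 in 4-hydroxytamoxifen, and fell by 0.29 ± 0.08 (limma adjusted p = 0.0331). Its other probes gave -0.10 and -0.05 and did not pass. The call was lost without DMSO replicate 1 (limma adjusted p = 0.0691), DMSO replicate 2 (0.113) or 4-hydroxytamoxifen replicate 2 (0.124), within 0.00661 to 0.169 over all alternatives.

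Among the remaining maternally expressed genes, Ppp1r9a, an actin-binding protein that anchors a protein phosphatase, read 344.3 and 348.0 in DMSO and 456.3 and 429.6 in 4-hydroxytamoxifen. It rose by 0.43 ± 0.07 (limma adjusted p = 0.00623), with a second probe at 0.36, but did not pass with spike-in scaling (0.28, limma adjusted p = 0.279, alternatives from 0.0018). Calcr, the calcitonin receptor, read 3.60 and 40.2 in DMSO and 19.4 and 20.0 in 4-hydroxytamoxifen. It was above background on 1 array of each group, and its sign rested on 1 DMSO array: 0.78 ± 1.22 with both, -0.95 without replicate 1 and 2.51 without replicate 2. The transporter Slc22a2 and the zinc finger gene Zim1 were not well above background on any array, and Slc22a3, another transporter, only on DMSO replicate 1, at 42.7. These 3 were not tested.

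The largest fall among the members was in a paternally expressed gene. Nnat, a small membrane protein of the endoplasmic reticulum, read 443.0 and 379.5 in DMSO and 44.2 and 75.5 in 4-hydroxytamoxifen. It fell by 2.76 ± 0.29, 6.76-fold (limma adjusted p = 0.00206), and 0.382% of all features had a value as low. Nap1l5, an intronless relative of Nap1l4, read 10.9 and 14.1 in DMSO, not well above background, and 43.5 and 40.9 in 4-hydroxytamoxifen. It rose at least 2.58-fold, the 4-hydroxytamoxifen mean set against, per DMSO array, the higher of its own signal and the lowest signal well above background; the fit gave 1.83 ± 0.14 (limma adjusted p = 0.00108). Nap1l5 passed the filter only through the group where it is high, and its bound lies below the rises of Impact (2.90-fold), Grb10 (2.72-fold) and Slc22a18 (2.62-fold).

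Paternally expressed regulators of growth and differentiation did not share a direction. Dlk1, a transmembrane ligand related to those of Notch, read 1248 and 1207 in DMSO and 1979 and 2109 in 4-hydroxytamoxifen, a rise of 0.81 ± 0.07 (limma adjusted p = 0.00139); its second probe gave 0.59. Plagl1, a zinc finger transcription factor that restrains proliferation, read 810.9 and 798.0 against 1519 and 1463, a rise of 0.96 ± 0.06 (limma adjusted p = 0.000857), with 0.80 at its second probe. Mest, a hydrolase-fold protein, read 1413 and 1526 against 791.2 and 726.9, and fell by 0.88 ± 0.08 (limma adjusted p = 0.00152). In each of these genes the arrays of a group lay close together and far from the other group. Dio3, the deiodinase that inactivates thyroid hormone, read 285.9 and 290.9 against 226.6 and 217.3, and fell by 0.31 ± 0.06 (limma adjusted p = 0.0139). Dio3 did not pass without DMSO replicate 1 (0.0532), DMSO replicate 2 (0.0566) or 4-hydroxytamoxifen replicate 2 (0.0686), within 0.00354 to 0.0686 over all alternatives.

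Impact and Sgce rose. Impact, an inhibitor of a kinase that senses amino acid shortage, read 3141 and 3749 in DMSO and 9856 and 9117 in 4-hydroxytamoxifen, 2.90-fold higher by 1.54 ± 0.11 (limma adjusted p = 0.000989). Sgce, the epsilon subunit of the sarcoglycan complex, read 2058 and 2105 against 4274 and 4098, 2.11-fold higher by 1.08 ± 0.06 (limma adjusted p = 0.000727), with 1.0 at its second probe. Impact and Sgce were each higher in every 4-hydroxytamoxifen array than in any DMSO array. Peg10, the retrotransposon-derived neighbour of Sgce, was not well above background on any array and was not tested. Rasgrf1, an exchange factor for Ras, was near background, at 21.2 and 26.5 against 30.9 and 24.2. Its difference was 0.27 ± 0.17 and did not pass (limma adjusted p = 0.228), and a dimmer probe, not well above background in DMSO, was at least 1.31-fold higher. With the mean of its probes, which includes that dimmer one, Rasgrf1 passed as higher (0.39, limma adjusted p = 0.0329).

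None of the measured paternally expressed members of the Snrpn cluster passed as higher, and 1 passed as lower. Among all features 40.3% were higher and 29.3% lower. Snrpn, a core protein of the spliceosome, read 313.6 and 324.8 in DMSO and 204.2 and 210.1 in 4-hydroxytamoxifen, and fell by 0.55 ± 0.06 (limma adjusted p = 0.00244), with -0.64 at its second probe. Ndn, a growth suppressor of the MAGE family, read 1271 and 1195 against 1286 and 1348, a difference of 0.17 ± 0.07 (limma adjusted p = 0.11) that became -0.02 with median scaling. Mkrn3, a ubiquitin ligase, read 94.2 and 83.9 against 73.1 and 79.6, at -0.15 ± 0.10 (limma adjusted p = 0.226). With median scaling Mkrn3 passed as lower (-0.33, limma adjusted p = 0.0448). In the main fit only Snrpn of these 3 passed. Magel2, another MAGE family gene, read 15 and 15.8 in DMSO and 21.4 and 19.4 in 4-hydroxytamoxifen, was above background on 1 array and was not tested. That array was 4-hydroxytamoxifen replicate 1. With the other 4-hydroxytamoxifen array dim as well, no bound on a fold can be given for Magel2.

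Neither measured gene of the Peg3 cluster passed, while 69.5% of all features did, nor did either at an unadjusted limma p under 0.05. Peg3, a zinc finger protein, read 142.8 and 140.1 in DMSO and 123.9 and 129.3 in 4-hydroxytamoxifen, at -0.09 ± 0.06 (limma adjusted p = 0.27), and the mean of its probes was 0.01. Usp29, of the ubiquitin protease family, read 183.4 and 203.4 against 146.5 and 166.7, at -0.24 ± 0.10 (limma adjusted p = 0.0998). A second Usp29 probe went the other way, at 0.15 ± 0.19, and did not pass (limma adjusted p = 0.509 over probes). Both genes passed as lower with median scaling, at -0.27 and -0.42, and Usp29 also with quantile normalization, at -0.31.

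The Gnas locus gave the widest spread within a gene. Gnas, the alpha subunit of the stimulatory G protein, is read from several promoters in a row, some maternal, some paternal and 1 active on both copies in most tissues. Of its 8 probes 7 were measured, and their positions on chromosome 2 of mm9 run 5′ to 3′ along the plus strand. The probe furthest 5′, at 174109894, differed by 0.06 and did not pass. The next, at 174125482, read 50.4 and 52.8 in DMSO and 14.0 and 15.8 in 4-hydroxytamoxifen. The one at 174127292 read 81.4 and 102.8 against 9.62 and 13.3. Neither of these was well above background in 4-hydroxytamoxifen, so they were at least 2.87-fold and at least 5.09-fold lower. Further 3′, the probe at 174154028 gave -1.18 ± 0.46 and did not pass, and the one at 174158317 gave -1.47 ± 0.41 (limma adjusted p = 0.0336 over probes). The last 2, which are the brightest, rose slightly: that at 174167396 read 3635 and 3612 against 4305 and 4371, by 0.33 ± 0.06 (limma adjusted p = 0.00972 over features), and that at 174167177 also by 0.33. The rise did not pass with median scaling (limma adjusted p = 0.108), with spike-in scaling (0.493, the highest of all alternatives, down to 0.00325) or without 4-hydroxytamoxifen replicate 2 (0.0524), and the mean over all probes was -0.94. All probes called as lower lay upstream of the 2 called as higher. Which of the locus's promoters each probe reads was not determined here.

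**Figure D3:**
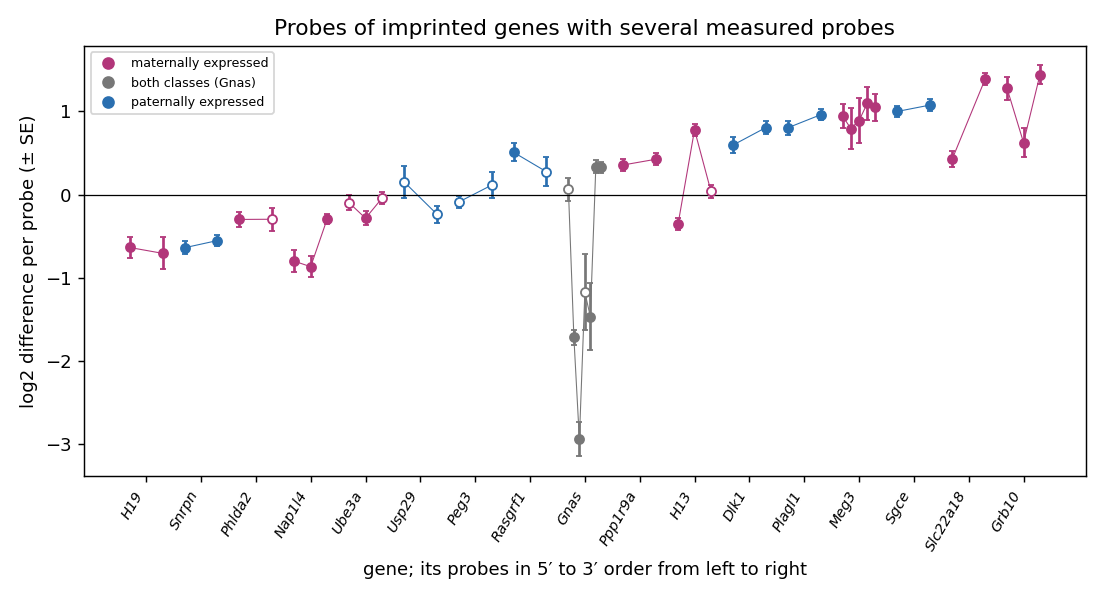
Log2 difference of each measured probe (y axis, with the standard error) of the 17 members with several, its probes placed 5′ to 3′ from left to right within a gene (x axis); open points did not pass. In 10 genes every probe passed the same way, while Gnas and H13 hold probes called in opposite directions. For comparison, 67.2% of all probes passed.

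Of the 57 measured probes of the members, 25 were higher, 17 lower and 15 did not pass, against 67.2% of all 26392 probes called. Some of these calls come from probes that passed the filter only through the group where they are high. They are the Nap1l5 probe and the dimmer Rasgrf1 probe among the higher, and the Gnas probes at 174125482 and 174127292 among the lower. Shares by direction over all probes were not counted. Of 17 members with several measured probes, 10 had all of them called the same way and 2, Gnas and H13, had probes called in opposite directions. The same count over all genes with several probes was not made, so these counts have no background beside them. Probes of a gene share its samples and are not replicates of the condition.

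Compared by class, 13 maternally expressed members were measured, 6 higher, 5 lower and 2 not passed, with a median of 0.43. That is 46.2% higher and 38.5% lower, near the 40.3% and 29.3% of all features. Of 14 paternally expressed members, 5 were higher, 4 lower and 5 did not pass, with a median of 0.04, the same with Nap1l5 at its bound. Their shares, 35.7% higher and 28.6% lower, also lay near those of all features. The median of all features was 0.11, and each class covered rises and falls. The maternal median was 0.07 without DMSO replicate 1 and 0.09 with normexp background correction. The count of maternally expressed members that fell was 1 without either DMSO replicate, 2 without 4-hydroxytamoxifen replicate 2 and 3 without 4-hydroxytamoxifen replicate 1. No difference between the classes was tested.

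A list of other textbook imprinted loci had 31 measured genes, and no difference between its classes, or from the members, was tested. Of 19 maternally expressed ones 12 were higher and 3 lower, with a median of 0.86. Of 12 paternally expressed ones 1 was higher and 8 lower, with a median of -0.46. Rian, a noncoding RNA that hosts small nucleolar RNAs downstream of Meg3, read 106.0 and 98.3 in DMSO and 581.9 and 517.9 in 4-hydroxytamoxifen, a rise of 2.50 ± 0.09 (limma adjusted p = 0.000447). Cobl, an actin nucleator beside Grb10, rose by 1.40 ± 0.10, and Osbpl5, a sterol-binding protein gene, by 1.28 ± 0.09. Cdkn1c, an inhibitor of cyclin-dependent kinases, fell by 0.73 ± 0.06, Dhcr7, an enzyme of cholesterol synthesis, by 0.50 ± 0.08, and Gatm, an enzyme of creatine synthesis, by 0.47 ± 0.09. Among paternally expressed ones, Mcts2 fell by 1.03 ± 0.07, the Polycomb-type gene Sfmbt2 by 0.74 ± 0.08 and Igf2 by 0.62 ± 0.06, and Zrsr1, a splicing factor relative, was the 1 that rose, by 0.57 ± 0.08. Mcts2 is a retrocopy of Mcts1, and which of the 2 its probe reads was not tested. Pooled with the members, 32 maternally expressed genes had 18 higher and 8 lower with a median of 0.78, and 26 paternally expressed genes had 6 higher and 12 lower with a median of -0.22. Over all features 40.3% were higher and 29.3% lower, with a median of 0.11. The members alone had 6 higher and 5 lower (maternal) and 5 higher and 4 lower (paternal). Cluster neighbours count as separate genes in the pool, even Snurf and Snrpn, which share a transcript. Fibroblast markers, with a median of 0.92, were higher in the same arrays, and their part in these rises was not tested.

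**Figure D4:**
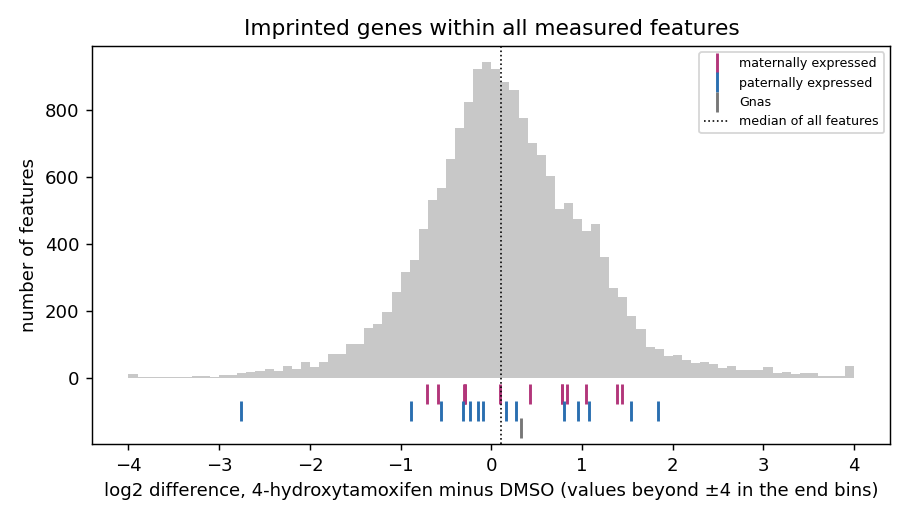
Number of features (y axis) by log2 difference (x axis, values beyond the axis in the end bins), with ticks for the 28 measured members by class. The members spread over the main body of the 17537 features around the median of 0.11, and Nnat lies apart from the other members at -2.76.

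Within clusters, neighbours did not always move together. The neighbours given here beside those above were chosen after their values were seen. For comparison, 40.3% of all features were higher and 29.3% lower. In the Dlk1-Dio3 cluster 4 of 5 genes rose, paternally expressed Dlk1 together with maternally expressed Meg3, Rian and Mirg (1.20 ± 0.06), and Dio3 fell. H19 and Igf2, which in body tissues are read from opposite parental copies, were both lower. In the Peg10-Sgce cluster 6 of 7 measured genes were higher and 0 lower, Sgce being the 1 paternally expressed gene among the 7: besides Sgce and Ppp1r9a these were the paraoxonase genes Pon3 (1.21 ± 0.08) and Pon2 (0.92 ± 0.08), the protease inhibitor gene Tfpi2 (1.07 ± 0.22) and Asb4 (0.27 ± 0.06). Tfpi2 did not pass without either 4-hydroxytamoxifen replicate (1.11 and 1.03), nor Asb4 without any 1 array. In the Snrpn cluster 0 of 7 measured genes were higher and 4 lower, among them Snurf (-0.60 ± 0.07), which shares its transcript with Snrpn, and Peg12 (-0.47 ± 0.08). Magel2 of this cluster, with higher signals in 4-hydroxytamoxifen but near background, was filtered as dim and is not among the 7. At an unadjusted limma p under 0.05 the Snrpn cluster also held 0 higher genes. In the Peg10-Sgce cluster that check could not find a fall, since the 1 gene not called, Calcr, differed by 0.78 ± 1.22. In the Kcnq1 cluster 3 of 11 were higher and 6 lower. The tetraspanin gene Cd81 rose by 0.86 ± 0.10, and the noncoding RNA Kcnq1ot1 fell by 0.48 ± 0.12, a call lost without either 4-hydroxytamoxifen replicate (-0.47 and -0.49). The mean of all Kcnq1ot1 probes was only -0.13 and did not pass (limma adjusted p = 0.567), nor did the gene pass with no filter on dim probes (0.0712).

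Some imprinted genes lie within an intron of another, and 2 such loci among the members are described here, chosen after their values were seen. Nnat lies within Blcap, which read 11882 and 12902 in DMSO and 22613 and 20828 in 4-hydroxytamoxifen, a rise of 0.88 ± 0.08 (limma adjusted p = 0.00156). The mean of all Blcap probes was -0.03 and did not pass. Mcts2 lies within H13; it fell, while the brightest H13 probe rose and an upstream one fell. Airn, the noncoding RNA that overlaps Igf2r, was near background, at 19.8 and 27.9 against 37.9 and 23.1, a difference of 0.40 ± 0.31 that did not pass (limma adjusted p = 0.3).

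**Figure D5:**
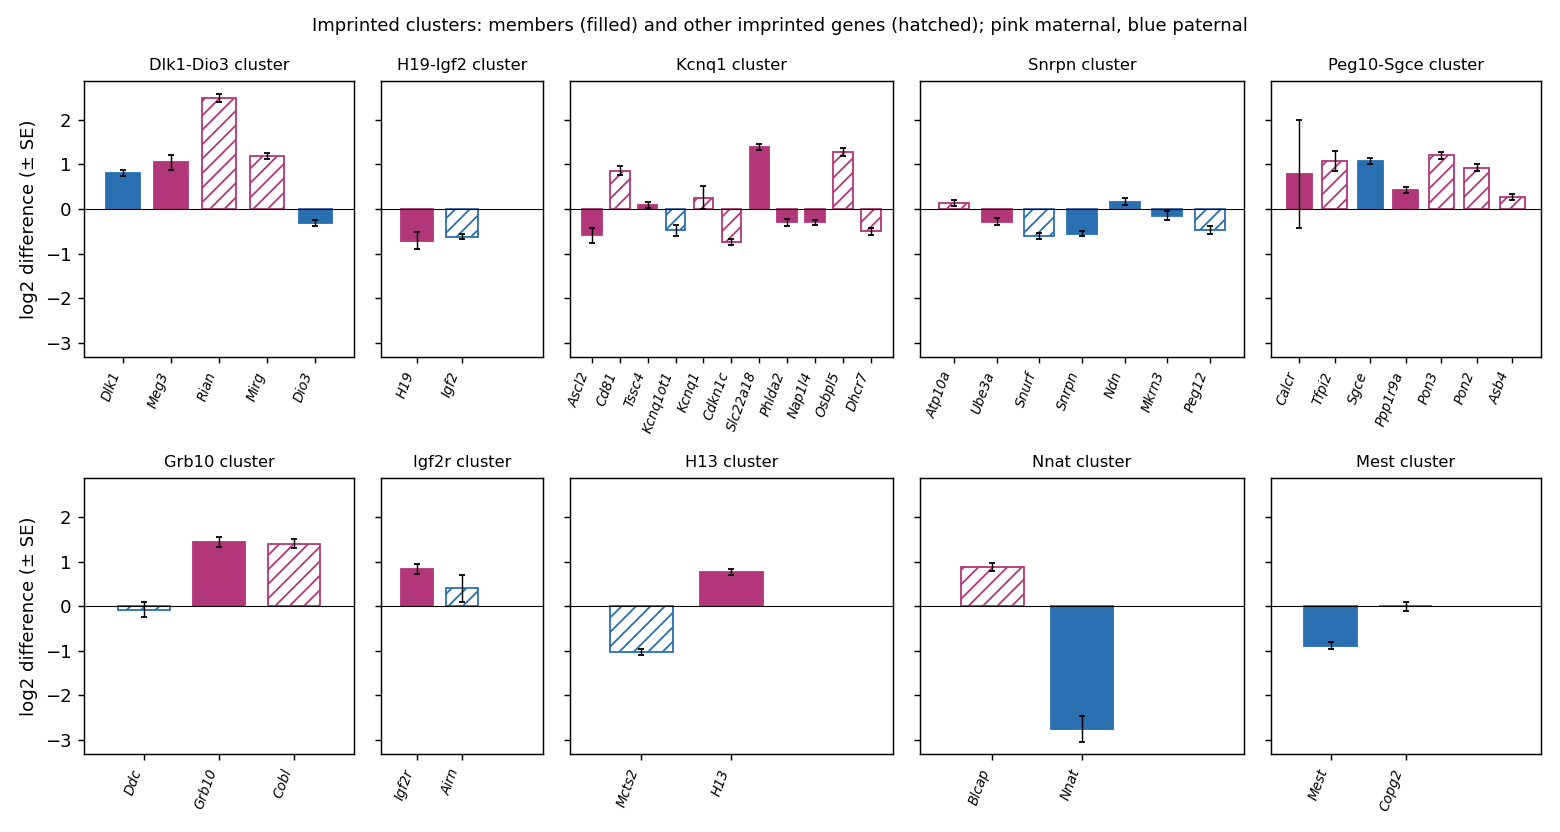
Log2 difference (y axis, bars from 0 with limma standard errors) of measured imprinted genes by cluster; filled bars are members, hatched bars other imprinted genes, pink maternally and blue paternally expressed. The Peg10-Sgce cluster holds no fall and the Snrpn cluster no rise that passed, while the other multi-gene panels mix directions or hold genes that did not pass, apart from H19-Igf2, where both fell.

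Genes that set or keep imprints also went both ways: of 19 measured, 5 were higher, 7 lower and 7 did not pass, with a median of -0.18. The 63.2% that passed lay below the 69.5% of all features. Uhrf1, which brings Dnmt1 to newly replicated DNA, read 12240 and 14083 in DMSO and 2491 and 2337 in 4-hydroxytamoxifen, and fell by 2.37 ± 0.09 (limma adjusted p = 0.000454). Dnmt1, the maintenance methyltransferase, fell by 1.05 ± 0.07 and Dppa3, which shields imprints after fertilisation, by 1.41 ± 0.08. Dnmt3l, the cofactor of new methylation in germ cells, read 464.1 and 485.2 against 7156 and 7923, a rise of 4.06 ± 0.08 (limma adjusted p = 0.000371). Kdm1b, a histone demethylase needed for imprints in the egg, rose by 1.39 ± 0.10, and Tet2, an enzyme that oxidises methylated cytosine, by 1.5 ± 0.09 with 1 of the 2 DMSO arrays above background. Of further genes chosen after their values were seen, Trim28 fell by 0.79 ± 0.09, and Zfp57 was near background, at 21.9 and 21.8 against 11.2 and 21.9, without passing (-0.40 ± 0.34, limma adjusted p = 0.345). DNA methylation was not measured, and 9 of 13 germ cell markers were lower there too (median -0.70).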

How the data were processed

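Total RNA of 4 samples was hybridised to 1-colour Agilent arrays with 60-base probes. The deposited scanner files hold intensity values per spot; their processed signals were made by Agilent Feature Extraction, version 10.7.3.1 per the file headers, while the submitters' processing notes name version 9.5. A value table that the authors deposited holds log2 values of the same arrays, which differed from log2 processed signals by an array-wide constant, and served as an alternative. Here control and outlier spots (60 to 71 per array) were left out, spots of a probe averaged, and log2 processed signals set against each array's 75th percentile (705 to 744). Probes well above background on at least 2 arrays were kept (26392), and the brightest stood for its gene (17537 features, 15136 with a symbol). The lowest signal well above background was 15.0 to 19.5; the number of arrays limits the precision. Names came from the files, updated through a RefSeq table of GRCm38.p6 (33635 of 41174 probes matched). The comparison used lmFit and eBayes of limma 3.58.1 under R 4.3.3 (Benjamini-Hochberg over all features, threshold 0.05). Tested on simulated data of 17537 features, 100 of them changed by each size, the fit recovered 88% of changes of 1 and 98% of changes of 2 on the log2 scale. The simulated noise came from the replicate spread of these arrays. Since 69.5% of features passed in the data, these rates need not hold for this comparison.

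Members, lists and tests were chosen with earlier results of these data known. All 33 members are named; of other lists, up to 3 passing genes with the largest difference in each direction, and Nanos2; further genes were chosen after their values were seen. Parental classes are from textbook knowledge. Alternatives covered background correction (normexp, offset 50), scaling (median, quantile, spike-in), filters, 16 added before the log, the mean of a gene's probes, the deposited table, a replicate block and leaving out each array.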

Additional observations from a re-analysis of the deposited data

How the results depend on the processing

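Of the 21 called members, 12 kept their call and direction in all of their alternatives: Dlk1, Grb10, Igf2r, Impact, Meg3, Mest, Nap1l5, Nnat, Plagl1, Sgce, Slc22a18 and Snrpn. The other 9 lost it in at least 1. Nap1l5, which passed the filter only through the group where it is high, dropped out with the filter on all 4 arrays. Its stability thus covers 13 alternatives. Over up to 14 alternatives per member, 338 of 389 values kept direction and side of the threshold, 38 lost a call, 7 gained one and 6 changed sign. Signs changed for Calcr without DMSO replicate 1 (-0.95), Gnas and Peg3 with the mean of all probes (-0.94 and 0.011), Ndn and Tssc4 with median scaling (-0.017 and -0.084) and Tssc4 with spike-in scaling (-0.049). Among other genes, Blcap changed sign with the mean of all probes (-0.033) and Zfp57 without 4-hydroxytamoxifen replicate 1 (0.078); with 1 array left out Zfp57 ran from -0.89 to 0.078 and Calcr from -0.95 to 2.51.

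Members called lower (9) were 3 with no filter on dim probes and 5 with spike-in scaling, and 4 to 7 with 1 array left out. Maternally expressed members called lower (5) were 3 with the mean of all probes, 0 with no filter (limma; 5 at an unadjusted p under 0.05), 2 with spike-in scaling and 1 to 3 with 1 array left out. Paternally expressed members called lower (4) were 7 with median scaling. Member probes called lower (17) were 9 with no filter and 10 to 13 with 1 array left out. The median of the maternally expressed members (0.43) was 0.14 with 16 added, 0.15 with the mean of all probes, 0.089 with normexp, 0.24 with median scaling and with no filter, 0.26 with the filter on all 4 arrays, 0.28 with spike-in scaling and 0.068 to 0.47 with 1 array left out. That of the paternally expressed members (0.04) was 0.088 with the mean of all probes, -0.14 with median scaling, -0.071 with quantile normalization, -0.11 with spike-in scaling and -0.12 with the filter on all 4 arrays. That of all members (0.22) was 0.15 with 16 added, 0.13 with the mean of all probes, 0.037 with median scaling, 0.12 with normexp, 0.12 with quantile normalization, 0.073 with spike-in scaling, 0.098 with the filter on all 4 arrays and 0.094 to 0.23 with 1 array left out. The cause of these changes was not tested.

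Equal replicate numbers are only numbers here: same-numbered deviations from the group means correlated at -0.05. With the replicate block the members were 12 higher and 6 lower, of the maternally expressed ones 2 lower, and all features 6497 higher and 4554 lower. Signals near background limit Calcr, Rasgrf1, Nap1l5, Magel2 and the upstream Gnas probes, for which differences are bounds, rest on single arrays or are not given.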
